A study of Mus musculus with 9 samples.

Results

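Collagens are the main structural proteins of skin, and the mouse genome holds many genes for their chains. The collagen genes described here are all rows of the count table whose symbol is Col, a number, the letter a and a number (Col1a1, Col4a5 and so on), which gave 44 of the 54456 genes. They were followed in 3 groups of mouse skin, each made of AA-like lesions (the term the labels use, in a study of immune-mediated alopecia). One group was treated with microneedles loaded with IL-2 and CCL22 (loaded skin), one with microneedles that carried no such load (empty-device skin), and one was left untreated (untreated skin). IL-2 drives the growth of T cells, regulatory T cells among them, and CCL22 draws in cells that carry its receptor CCR4. Each group had 3 libraries of polyadenylated RNA. The labels name no strain, age, sex, dose, time of sampling or device material, and nothing in them ties the 3 libraries of a group to different mice. The p-values therefore reflect how far these libraries vary, and part of that may be technical.

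A collagen molecule is a rope of chains wound around each other, and the classes differ in what the molecules build. Fibrillar collagens (types I, II, III, V, XI, XXIV and XXVII) form the tension-bearing fibrils of the dermis, made mostly by fibroblasts. Basement membrane collagen (type IV) forms the sheet under epithelia and around vessels, fat and muscle cells, and its genes lie in head-to-head pairs. Fibril-associated collagens decorate the surface of fibrils. Beaded-filament collagen (type VI) forms fine filaments around cells. Anchoring fibrils of type VII fix the epidermal basement membrane to the dermis, and type XVII spans the membrane of basal keratinocytes in hemidesmosomes. Chains are hydroxylated and folded in the endoplasmic reticulum, exported, trimmed at their ends, cross-linked outside the cell, and later removed by proteases.

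The 9 libraries held 85962714 to 96740589 counts. All 44 collagen genes had enough counts to be tested, among 26081 genes in all. Levels are CPM, counts scaled to a common total, of the library size scaled by TMM, a method that corrects for differences in RNA make-up. Differences are log2 fold changes from edgeR's quasi-likelihood test. A gene was called where its Benjamini-Hochberg adjusted p over the 26081 genes was under 0.05, and "rose" and "fell" are used of called genes only. Every p given below is such an adjusted p. Scaling by library size alone moved the median log2 fold change of all genes by 0.13 in loaded against untreated skin, 0.03 in loaded against empty-device skin and 0.10 in empty-device against untreated skin. Collagen genes whose call or direction turned on that choice are named where they are described.

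Collagen genes together took 0.262% ± 0.00184 of all counts in loaded skin, 0.294% ± 0.00644 in empty-device skin and 0.273% ± 0.00868 in untreated skin (SD, n = 3 libraries each). Col17a1 was the highest of the 44 genes, also per kilobase of transcript. On that scale it averaged 132 ± 1.99 CPM per kilobase in loaded skin, 152 ± 2.75 in empty-device skin and 129 ± 2.62 in untreated skin. Col3a1 came next, and then Col1a2, Col1a1, Col18a1, Col16a1 and Col4a1 in the mean over all libraries. In counts, 7 collagen genes averaged at least 100 CPM and 6 averaged under 1 CPM. The reads of a gene were counted over its whole span, introns included, so a level is not a count of spliced messages alone.

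Against untreated skin, 11 collagen genes rose and 14 fell in loaded skin, and 19 were not called. In this comparison 42.3% of all tested genes were called, 19% higher and 23.3% lower. Library size alone turned that balance, with 16 collagen genes higher and 13 lower, where 32.5% of all tested genes were higher and 15.2% lower. Under TMM, among genes of at least 1 CPM, the share called was 65.8% for collagens (25 of 38) and 60.1% for all genes, so the number of collagen calls was close to the background. Of the 44, Col8a1 was the one called change of at least 2-fold. The median log2 fold change was 0.014 over the collagen genes and -0.014 over all tested genes. The classes differed in direction. Of the 11 fibrillar genes 5 fell and 1 rose, and of the 6 beaded-filament genes 4 fell and 1 rose. Of the 6 basement membrane genes 4 rose and 0 fell, the other 2 not being called.

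Against empty-device skin, 13 collagen genes rose and 19 fell in loaded skin, where 41.4% of all tested genes were called, 22.9% higher and 18.5% lower. Among genes of at least 1 CPM the share called was 78.9% for collagens (30 of 38) and 58.1% for all genes. None changed 2-fold. Of the fibrillar genes 7 fell and 2 rose, of the fibril-associated genes 6 of 9 fell and 1 rose, and of the basement membrane genes 5 of 6 rose and 0 fell. The median log2 fold change was -0.13 over the collagen genes, against 0.015 over all tested genes.

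Empty-device skin differed from untreated skin in 26 collagen genes, 8 higher and 18 lower. Here 48.3% of all tested genes were called, 20.2% higher and 28.1% lower, and among genes of at least 1 CPM the shares were 65.8% for collagens and 67% for all genes. The count of lower calls was sensitive to scaling, with 9 collagen genes lower under upper-quartile scaling and 7 under library size alone, where 15 were higher. Of the fibrillar genes 3 rose and 6 fell, and of the basement membrane genes 1 rose and 3 fell. Of the fibril-associated genes 1 rose and 2 fell, and of the beaded-filament genes 0 rose and 2 fell. The class medians were -0.10 for fibrillar, -0.21 for basement membrane, 0.16 for fibril-associated and -0.15 for beaded-filament genes. The fibril-associated median was the value of Col9a1, which had 28 to 48 reads per library and was not called. With library size alone the median of the class fibrillar was 5.32e-06 in place of -0.10. The libraries of the 2 groups did not overlap for 27 of the 44 collagen genes in loaded against untreated skin, where 52.7% of all tested genes did not overlap. The number was 33 of 44 in loaded against empty-device skin (50.8% of all genes) and 22 of 44 in empty-device against untreated skin (54.6% of all genes). Genes of at least 1 CPM, as 38 of the 44 collagens were, had a larger share without overlap. Of 16804 such genes, 11757, 11221 and 11979 did not overlap in the 3 comparisons in this order. The 3 comparisons share libraries, since each group enters 2 of them, so their values are set side by side and no overlap between them is read. Among genes of at least 1 CPM, 27.8% were higher and 32.3% lower in loaded against untreated skin. The shares were 33% and 25% in loaded against empty-device skin, and 28.2% and 38.8% in empty-device against untreated skin. Counts of the gene lists below are to be read against these shares.

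**Figure D1:**
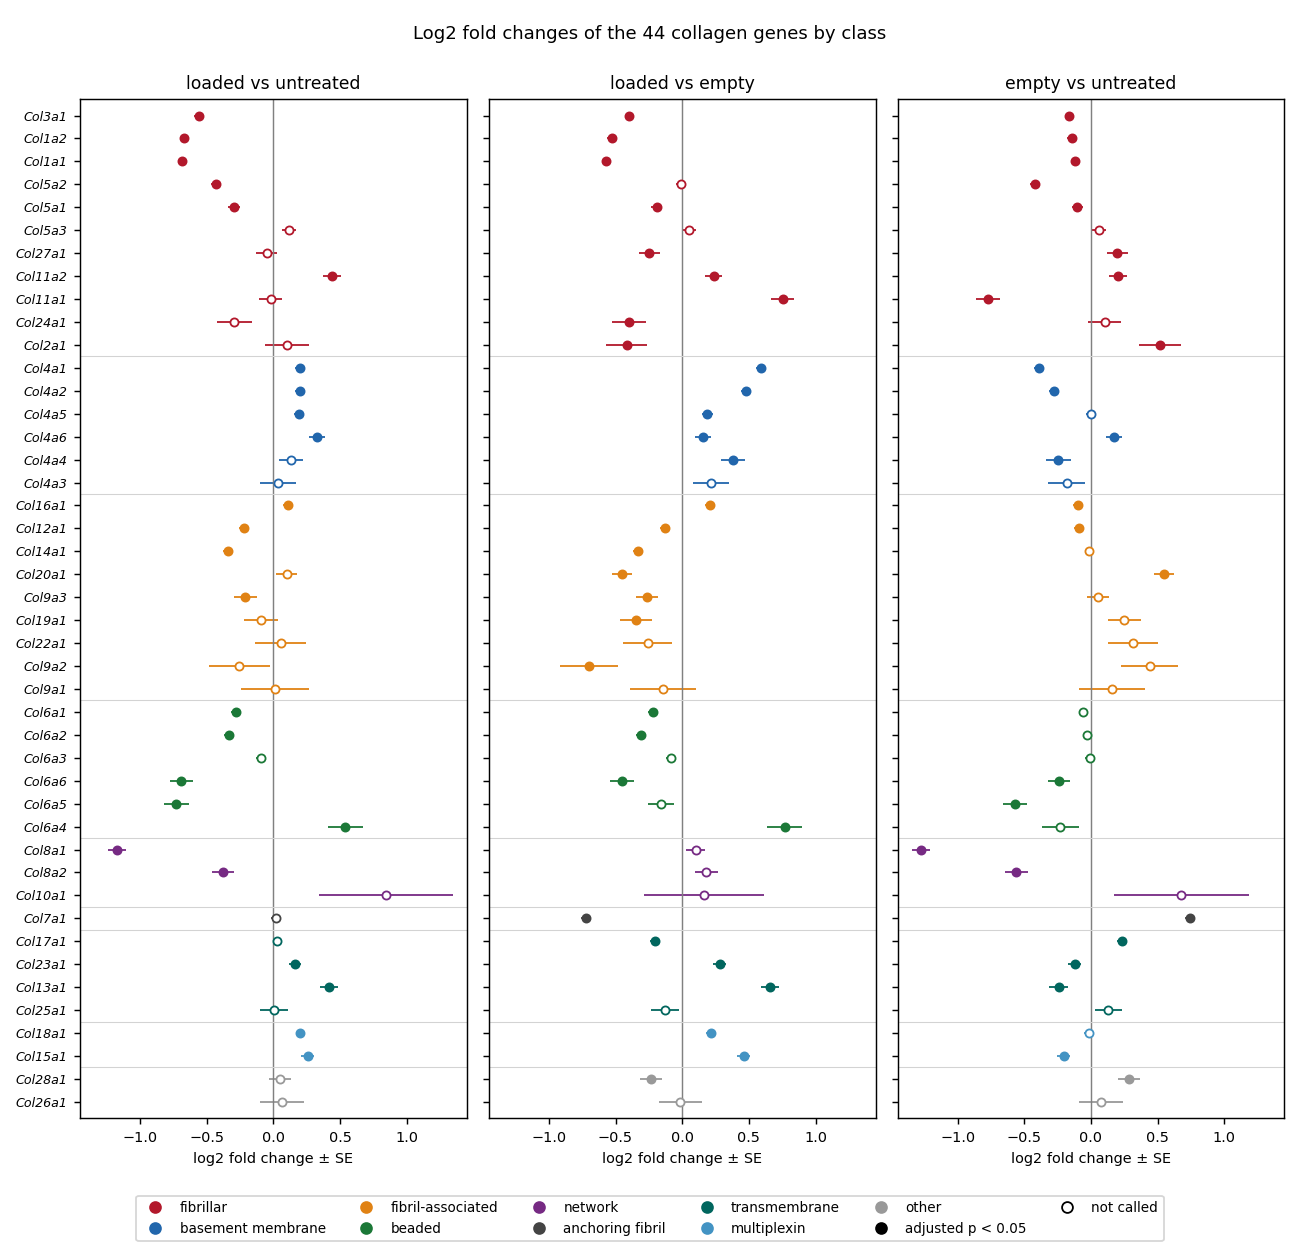
Log2 fold change (x axis, ± SE) of each of the 44 collagen genes (rows, grouped and coloured by class) in loaded against untreated, loaded against empty-device and empty-device against untreated skin; filled points are called. Col1a1, Col1a2 and Col3a1 lie left of 0 in all 3 panels, type IV genes lie right of 0 in both panels of loaded skin, and Col8a1 reaches -1.17 and -1.27 against untreated skin.

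The major fibrillar genes were lowest in loaded skin. Col1a1 and Col1a2 encode the chains of type I collagen, the bulk of dermal fibrils, and lie at chr11:94827050-94843868 and chr6:4504814-4541544, both on the plus strand (mm39). Col1a1 had 140, 143 and 140 CPM in loaded skin, 204, 211 and 212 CPM in empty-device skin, and 230, 229 and 221 CPM in untreated skin. Col1a2 had 173, 178 and 173 CPM in loaded skin, 242, 256 and 256 CPM in empty-device skin, and 277, 284 and 273 CPM in untreated skin. For both genes the groups did not overlap in any comparison. Col1a1 fell 1.61-fold against untreated skin (log2 -0.69, SE 0.0319, adjusted p = 6.59e-16) and 1.48-fold against empty-device skin (log2 -0.57, SE 0.0318, adjusted p = 2.13e-14). Col1a2 fell 1.59-fold and 1.44-fold in the same comparisons (log2 -0.67 and -0.53). Empty-device skin lay below untreated skin by only 1.08-fold for Col1a1 and 1.1-fold for Col1a2 (log2 -0.12 and -0.14). Those small differences were called under TMM but not under upper-quartile scaling (log2 -0.05 for Col1a1 and -0.07 for Col1a2) or library size alone (-0.01 and -0.04). For Col1a1 the call also ended when only the 2 groups compared were fitted (log2 -0.09).

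Col3a1 (chr1:45350698-45388866, plus strand, mm39), the type III chain that is mixed into the same dermal fibrils, had 381, 393 and 391 CPM in loaded skin, 488, 519 and 526 CPM in empty-device skin, and 571, 585 and 560 CPM in untreated skin. No group overlapped another. The gene fell 1.47-fold against untreated skin (log2 -0.56, SE 0.0346) and 1.32-fold against empty-device skin (log2 -0.40, SE 0.0346). In empty-device against untreated skin its log2 fold change was -0.16, called under TMM but not with library size alone (-0.06).

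Type V collagen sits in the core of type I fibrils and limits their width, and its chains did not move as one. Col5a2 had 57.1, 58.9 and 56.3 CPM in loaded skin, 55, 58.9 and 59.6 CPM in empty-device skin, and 75.3, 79.9 and 76.9 CPM in untreated skin. Loaded and empty-device skin overlapped, and both lay below untreated skin (log2 -0.43 and -0.42, SE 0.0353 each). The difference of loaded from empty-device skin was -0.01 (SE 0.0355). Col5a1, which pairs with Col5a2 in the common form of type V, fell in loaded skin against both groups (log2 -0.30 against untreated and -0.19 against empty-device skin). In empty-device against untreated skin Col5a1 was at -0.10, and that call ended under every other scaling and filter, turning to 5.32e-06 with library size alone, as well as without loaded replicate 3, any empty-device library, or untreated replicate 2 or 3 (-0.06 to -0.11). Col5a3 was not called in any comparison (0.11, 0.05 and 0.06), although its loaded libraries, at 24.4 to 25.1 CPM, did not overlap the untreated ones, and it was called higher in loaded against untreated skin under each other scaling (0.13 to 0.25). Leaving out empty-device replicate 3 or untreated replicate 2 did the same (0.13 and 0.15), and upper-quartile scaling or library size alone put it higher in empty-device than in untreated skin (0.13 and 0.16).

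The minor fibrillar genes included the members that went the other way. Col11a2, a chain of the type XI collagen best known from cartilage, had 8.86, 8.14 and 8.23 CPM in loaded skin, 7.04, 7.41 and 6.98 CPM in empty-device skin, and 6.15, 6.37 and 6.09 CPM in untreated skin. It rose in loaded skin by 0.44 (log2, SE 0.0643) against untreated and by 0.24 (SE 0.0625) against empty-device skin, with no overlap between any groups. Col11a1, its partner chain, had 4.56, 4.25 and 4.06 CPM in loaded skin, 2.54, 2.39 and 2.71 CPM in empty-device skin, and 4.37, 4.05 and 4.62 CPM in untreated skin. Loaded and untreated skin overlapped (log2 -0.02, SE 0.085), and empty-device skin alone stood below them, at 0.75 for loaded against empty-device skin and -0.77 for empty-device against untreated skin. Of the 7 tested genes of a cartilage list of 10, 1 rose and 0 fell in loaded against untreated skin, 2 rose and 1 fell in loaded against empty-device skin, and 2 rose and 1 fell in empty-device against untreated skin. Of all tested genes 19% rose and 23.3% fell, 22.9% rose and 18.5% fell, and 20.2% rose and 28.1% fell in the same order. Acan, the large proteoglycan of cartilage, rose in loaded skin by 0.68 against untreated and by 0.61 against empty-device skin, at 1.91 to 2 CPM in loaded skin, 1.21 to 1.32 CPM in empty-device skin and 1.14 to 1.32 CPM in untreated skin. Sox9, a factor of cartilage and of hair follicles, rose against empty-device skin (0.24), and Comp, a matrix protein of cartilage and tendon, fell (-0.79). Matn1, Mia and Snorc, which mark chondrocytes, averaged 0.0311 to 0.0613 CPM in every group and were too low to be tested.

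The other fibrillar genes were low. Col27a1 ranged over 7.99 to 8.82 CPM in loaded skin, 9.37 to 10.9 CPM in empty-device skin and 7.65 to 9.86 CPM in untreated skin. It fell against empty-device skin (log2 -0.25, SE 0.0774, adjusted p = 0.013), a call that ended without loaded replicate 2 (-0.21). Its rise in empty-device against untreated skin (0.20, adjusted p = 0.042) ended on leaving out any loaded library, empty-device replicate 1 or 3, or untreated replicate 1 or 3 (0.11 to 0.22). Col24a1 had 1.61, 2.19 and 1.84 CPM in loaded skin, 2.18, 2.27 and 2.99 CPM in empty-device skin, and 2.32, 2.14 and 2.47 CPM in untreated skin. The loaded group overlapped both others, and the call against empty-device skin (log2 -0.40, adjusted p = 0.0132) ended without loaded replicate 1 (-0.30) or empty-device replicate 3 (-0.27). Against untreated skin its -0.30 was not called, but was without loaded replicate 2 (-0.42) or empty-device replicate 3 (-0.28). Col2a1, the main collagen of cartilage, was at 0.752 to 1.27 CPM in all libraries and was lower in loaded than in empty-device skin (-0.42, adjusted p = 0.0286). That call ended without loaded replicate 1 or 2 or empty-device replicate 1 or 3 (-0.37 to -0.43), while Col2a1 was higher in empty-device than in untreated skin (0.52, adjusted p = 0.00666).

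Values of fibroblast markers lay beside these. Of a list of 16 fibroblast genes that holds no collagen, 12 fell and 0 rose in loaded against untreated skin, 11 fell and 4 rose in loaded against empty-device skin, and 8 fell and 4 rose in empty-device against untreated skin. Of all genes of at least 1 CPM, 32.3% fell and 27.8% rose, 25% fell and 33% rose, and 38.8% fell and 28.2% rose in the same order. The fibroblast genes summed to 644 to 665 CPM in loaded skin, 712 to 764 CPM in empty-device skin and 835 to 862 CPM in untreated skin, and none was at 0. Pdgfra, a receptor that marks dermal fibroblasts, had log2 fold changes of -0.18, 0.13 and -0.30 in the same order of comparisons. With the fibroblast score as a covariate 0 collagen genes were called in loaded against untreated skin. Of all tested genes 0.107% were then higher and 0.544% lower, so 0 of 44 was close to the background. Of the variance of that score 95.8% lay between the groups, and the median standard error of the collagen genes was 4.72 times as large. The part of fibroblast number in the fibrillar values was not tested. In bulk skin, fewer cells of a type and less RNA per cell cannot be told apart.

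**Figure D2:**
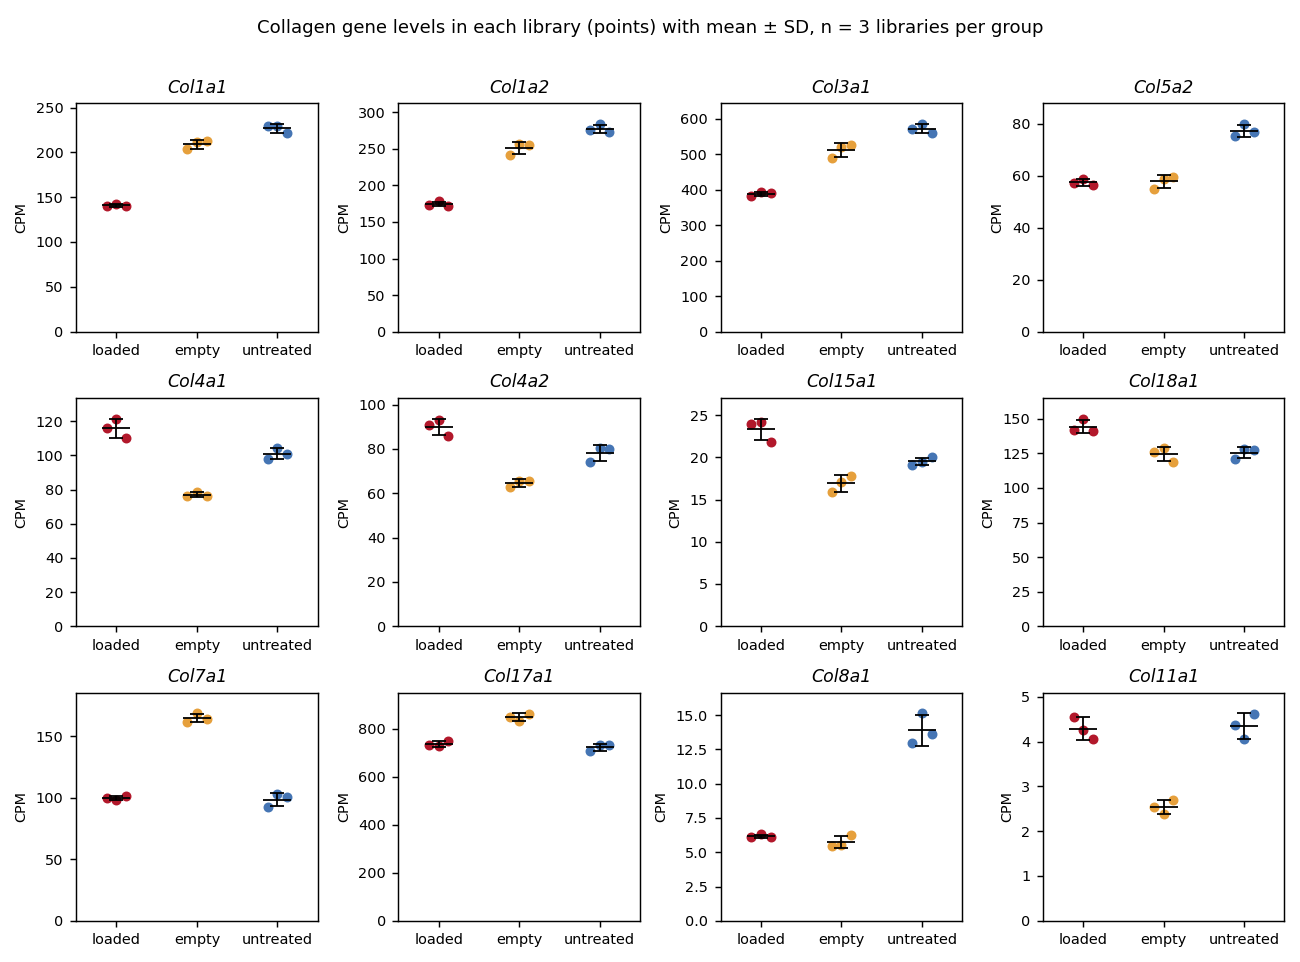
CPM (y axis, from 0) of 12 collagen genes in each library of loaded, empty-device and untreated skin (points), with the mean ± SD of 3 libraries. Col1a1, Col1a2 and Col3a1 are lowest in loaded skin, Col4a1, Col4a2 and Col15a1 are highest there, Col7a1 stands out in empty-device skin alone, and Col8a1 stands out in untreated skin alone.

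Of the 6 genes of type IV collagen, the basement membrane network, 4 rose in loaded against untreated skin and 5 in loaded against empty-device skin. The 6 genes are arranged in head-to-head pairs that are read in opposite directions. In the coordinates of the count table (mm39) Col4a1 and Col4a2 overlap by 22 bases on chromosome 8. Col4a4 and Col4a3 start 72 bases apart on chromosome 1, and Col4a6 and Col4a5 start 1309 bases apart on the X chromosome. The sequences around the starts of Col4a1, Col4a2, Col4a6 and Col4a5 are shown because each pair is read away from a common stretch, which for Col4a1 and Col4a2 lies within the windows, and that of Col1a2 because it is the type I gene with an entry in the table used. Each is a RefSeq promoter window in GRCm38.p6, 250 bases before to 50 bases after the start, written along the gene, and 35 of the 44 collagen genes had such an entry. Capitals mark a short motif searched on either strand. The motifs were CCAAT, the box bound by factors such as NF-Y, then GGGCGG, a GC box of the kind bound by Sp proteins, and lastly TATAAA, the TATA box. A match on the other strand stands as its reverse complement. The TATA box was not found in these 5 windows.
Col4a1, chr8:11312777-11313076, minus strand: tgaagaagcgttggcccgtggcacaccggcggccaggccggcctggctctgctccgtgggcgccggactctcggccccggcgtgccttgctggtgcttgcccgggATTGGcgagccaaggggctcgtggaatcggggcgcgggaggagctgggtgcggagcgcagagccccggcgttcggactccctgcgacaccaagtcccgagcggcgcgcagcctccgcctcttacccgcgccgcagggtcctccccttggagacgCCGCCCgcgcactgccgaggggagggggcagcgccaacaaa
Col4a2, chr8:11312555-11312854, plus strand: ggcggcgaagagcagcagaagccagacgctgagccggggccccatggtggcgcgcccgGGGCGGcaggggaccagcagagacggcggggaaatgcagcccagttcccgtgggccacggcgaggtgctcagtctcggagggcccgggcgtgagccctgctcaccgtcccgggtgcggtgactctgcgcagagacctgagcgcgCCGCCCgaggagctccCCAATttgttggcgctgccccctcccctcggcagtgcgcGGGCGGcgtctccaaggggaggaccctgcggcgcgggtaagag
Col4a6, chrX:141474027-141474326, minus strand: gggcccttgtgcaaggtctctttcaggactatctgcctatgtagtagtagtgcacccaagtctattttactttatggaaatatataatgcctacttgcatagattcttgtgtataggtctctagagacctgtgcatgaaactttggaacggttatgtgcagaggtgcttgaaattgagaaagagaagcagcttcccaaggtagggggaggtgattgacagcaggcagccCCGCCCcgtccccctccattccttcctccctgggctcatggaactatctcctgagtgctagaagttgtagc
Col4a5, chrX:141475169-141475468, plus strand: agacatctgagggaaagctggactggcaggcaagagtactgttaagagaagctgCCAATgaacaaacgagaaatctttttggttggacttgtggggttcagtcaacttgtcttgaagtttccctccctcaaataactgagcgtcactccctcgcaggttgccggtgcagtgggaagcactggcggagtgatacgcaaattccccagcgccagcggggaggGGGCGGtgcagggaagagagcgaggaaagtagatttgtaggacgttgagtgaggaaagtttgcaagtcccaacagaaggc
Col1a2, chr6:4505368-4505667, plus strand: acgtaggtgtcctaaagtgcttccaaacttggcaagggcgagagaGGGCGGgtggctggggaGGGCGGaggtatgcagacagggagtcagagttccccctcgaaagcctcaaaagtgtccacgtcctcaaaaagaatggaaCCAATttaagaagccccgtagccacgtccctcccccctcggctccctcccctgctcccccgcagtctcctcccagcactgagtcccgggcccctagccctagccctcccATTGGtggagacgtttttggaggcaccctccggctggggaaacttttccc
The Col4a1 and Col4a2 windows share 78 bases, and the GC box at position 8 of Col4a2 is the one at position 10 of Col4a1, read from the other strand, counting from 1 at each start. GC boxes were found in 60.5% of the 38 collagen windows (22 of the 35 genes) and in 35.7% of all 32851 windows. CCAAT was in 34.2% of collagen and 37.4% of all windows, and TATAAA in 13.2% and 13.6%. These are matches of letters, not measured binding sites.

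Col4a1 and Col4a2, the chains of the ubiquitous form of type IV, were highest in loaded and lowest in empty-device skin. Col4a1 had 116, 122 and 110 CPM in loaded skin, 76.1, 78.8 and 76.4 CPM in empty-device skin, and 98, 104 and 101 CPM in untreated skin. Col4a2 had 90.8, 93.1 and 86 CPM in loaded skin, 62.6, 65.7 and 65.5 CPM in empty-device skin, and 74.1, 80.6 and 80 CPM in untreated skin. The groups did not overlap for either gene. Against empty-device skin Col4a1 rose 1.5-fold (log2 0.59, SE 0.0352, adjusted p = 8.13e-14) and Col4a2 1.39-fold (log2 0.48, SE 0.0365, adjusted p = 1.34e-11). Against untreated skin each rose 1.15-fold (log2 0.20). Empty-device skin was lower than untreated skin for both (log2 -0.39 and -0.28). The genes share only those 22 bases, at chr8:11248423-11362826 on the minus strand for Col4a1 and chr8:11362805-11499287 on the plus strand for Col4a2 (mm39).

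Col4a5 and Col4a6, chains of the epithelial forms, moved less. Col4a5 had 29.6, 29.2 and 29.1 CPM in loaded skin, 26.4, 25.1 and 25.5 CPM in empty-device skin, and 25.3, 26.2 and 25.5 CPM in untreated skin. Its loaded libraries lay above all others (log2 0.19 against each group), and empty-device and untreated skin overlapped (0.00, SE 0.0389), although library size alone put empty-device skin higher by 0.10. Col4a6 had 22.5, 20.4 and 19.9 CPM in loaded skin, 18.3, 18.6 and 19.4 CPM in empty-device skin, and 15.2, 16.5 and 18.4 CPM in untreated skin. It rose by 0.32 (SE 0.0589) against untreated skin. The smaller rise against empty-device skin (0.15, adjusted p = 0.036) was not called under upper-quartile scaling (0.10), the stricter filter or the DESeq2 test (0.14 each), nor without loaded replicate 1 (0.10) or any one empty-device library (0.14 to 0.15). In empty-device against untreated skin Col4a6 was at 0.17, not called without untreated replicate 1 (0.10) or 2 (0.16).

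Col4a4 and Col4a3, the chains known from kidney and other specialised membranes, were at 2.63 to 3.73 and 1.2 to 1.72 CPM. Col4a4 rose against empty-device skin (log2 0.38, SE 0.0905, adjusted p = 0.00107) and was at 0.13 against untreated skin, where library size alone made it a call (0.27). Its fall in empty-device against untreated skin (-0.24) ended under each other scaling (-0.14 to -0.21) and without empty-device replicate 2 or 3 or untreated replicate 1 (-0.20 to -0.23). Col4a3 was not called in any comparison (0.04, 0.22 and -0.18), and 30132 bases of it overlap C430014B12Rik, a gene on the other strand with more counts than Col4a3 itself.

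Type XV and type XVIII collagens, the multiplexins, are heparan or chondroitin sulfate carriers of basement membrane zones, and both rose in loaded skin. Col18a1, from whose end endostatin is cut, had 142, 150 and 141 CPM in loaded skin, 126, 129 and 119 CPM in empty-device skin, and 121, 128 and 128 CPM in untreated skin. The loaded libraries lay above all others, by 0.20 (log2, SE 0.0355) against untreated and 0.21 (SE 0.0354) against empty-device skin. Empty-device and untreated skin overlapped (-0.01, and a called 0.09 with library size alone). Col15a1, which borders vessels, fat cells and muscle, had 23.9, 24.2 and 21.9 CPM in loaded skin, 15.9, 17.1 and 17.8 CPM in empty-device skin, and 19.1, 19.5 and 20 CPM in untreated skin. It followed the order of Col4a1, with a rise of 0.46 against empty-device and 0.26 against untreated skin and a fall of 0.21 in empty-device against untreated skin, the last not called with library size alone (-0.10).

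Marker lists of cells that have such membranes are given beside these values. Adipocyte genes summed to 961 to 1007 CPM in loaded skin, 490 to 542 CPM in empty-device skin and 844 to 929 CPM in untreated skin. All 8 of them rose in loaded against empty-device skin, 4 of 8 rose in loaded against untreated skin, and all 8 fell in empty-device against untreated skin. Of all genes of at least 1 CPM, 33% rose, 27.8% rose and 38.8% fell in these comparisons. Endothelial genes summed to 132 to 141 CPM in loaded skin, 124 to 138 CPM in empty-device skin and 124 to 126 CPM in untreated skin. Of these 8, 2 rose and 0 fell against untreated skin, and 1 rose and 1 fell against empty-device skin. These counts did not exceed the shares over all genes of at least 1 CPM. Those were 27.8% higher and 32.3% lower against untreated skin, and 33% and 25% against empty-device skin. Pecam1, an adhesion molecule of vessel lining, was at 36.8 to 38 CPM in loaded skin, 35.6 to 39.7 CPM in empty-device skin and 35.6 to 37.7 CPM in untreated skin, and Col4a1 relative to Pecam1 was 3.1 ± 0.173 in loaded skin, 2.09 ± 0.147 in empty-device skin and 2.74 ± 0.171 in untreated skin (SD, n = 3 each). No marker of either list was at 0. The part of adipocyte RNA in the type IV and type XV values was not tested.

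Of the 9 fibril-associated genes, 6 fell and 1, Col16a1, rose in loaded against empty-device skin. Against untreated skin 3 fell, 1 rose, again Col16a1, and 5 were not called. Col16a1, found near basement membranes and on small fibrils, had 119, 122 and 117 CPM in loaded skin, 100, 109 and 99.9 CPM in empty-device skin, and 106, 113 and 113 CPM in untreated skin. It rose by 0.21 (log2, SE 0.0363) against empty-device skin. Its rise of 0.11 against untreated skin was not called without loaded replicate 1 (0.11) or 2 (0.09) or untreated replicate 1 (0.08). The call in empty-device against untreated skin (-0.10) ended under each other scaling, filter and 2-group fit, with 0.0038 under library size alone, and without empty-device replicate 1 or 3 or untreated replicate 2 or 3 (-0.04 to -0.09).

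Col12a1 and Col14a1 bind type I fibrils in dermis and other dense tissue, and both were lowest in loaded skin. Col12a1 had 57.2, 59.9 and 57 CPM in loaded skin, 66.2, 61.7 and 62.7 CPM in empty-device skin, and 68.1, 67.4 and 67.7 CPM in untreated skin. Col14a1 had 31.8, 31.8 and 31.2 CPM in loaded skin, 39.4, 39.5 and 40.5 CPM in empty-device skin, and 40.4, 41.3 and 38.7 CPM in untreated skin. Neither gene's loaded libraries overlapped another group. Col14a1 fell by 0.34 against untreated and by 0.33 against empty-device skin (SE 0.0359 and 0.0357), and Col12a1 by 0.22 and 0.13 (SE 0.0338 and 0.0337). Empty-device and untreated skin differed by -0.01 for Col14a1 and -0.09 for Col12a1. The Col12a1 call there ended under each other scaling, filter and 2-group fit (-0.08 to 0.012) and without empty-device replicate 2 (-0.07) or 3 (-0.04), and library size alone turned the sign of both (0.012 for Col12a1 and a called 0.09 for Col14a1).

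The remaining fibril-associated genes were under 7 CPM. Col20a1 had 5.13, 4.72 and 4.55 CPM in loaded skin, 6.14, 6.59 and 6.97 CPM in empty-device skin, and 4.56, 4.53 and 4.36 CPM in untreated skin. Empty-device skin stood above both others, with log2 values of -0.45 for loaded against empty-device and 0.55 for empty-device against untreated skin (SE 0.0733 and 0.0746). Its 0.10 in loaded against untreated skin was a call with library size alone (0.23). A gene with more counts than Col20a1, 9230112E08Rik, overlaps 741 of its bases on the same strand, so part of the Col20a1 count may belong to it. Col9a3 fell by 0.21 against untreated skin (adjusted p = 0.0468) and by 0.26 against empty-device skin (adjusted p = 0.0124). Col9a3 shares 234 bases with Tcfl5, a gene on the other strand. The call against untreated skin ended under every other scaling (-0.08 to -0.20) and without loaded replicate 1 or 3, empty-device replicate 1 or 3, or untreated replicate 2 or 3 (-0.18 to -0.22), and that against empty-device skin without loaded replicate 1 or 3 or empty-device replicate 2 (-0.23 each). Col19a1 (-0.35) and Col9a2 (-0.70) were lower in loaded than in empty-device skin, at 1.62 to 2.59 and 0.351 to 0.939 CPM. Leaving out loaded replicate 3 or empty-device replicate 3 ended the call of Col19a1 (-0.28 and -0.26), and leaving out loaded replicate 2 or 3 or empty-device replicate 1 ended that of Col9a2 (-0.51 to -0.62). In empty-device against untreated skin these 2 genes were not called (0.25 and 0.44) except under upper-quartile scaling or library size alone (0.32 and 0.36 for Col19a1, 0.51 and 0.54 for Col9a2) and without empty-device replicate 1 (Col19a1, 0.34) or 3 (Col9a2, 0.57). Col22a1 and Col9a1 were not called in any comparison, save that Col22a1 was higher in empty-device than in untreated skin without untreated replicate 2 (0.56).

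Type VI collagen forms the beaded filaments that link cells to the dermal matrix. Col6a1 had 51.3, 53.5 and 52.5 CPM in loaded skin, 59.7, 60 and 63.8 CPM in empty-device skin, and 62.2, 64.7 and 64.2 CPM in untreated skin. Col6a2 had 42.3, 42 and 42.7 CPM in loaded skin, 50.9, 52.9 and 53.4 CPM in empty-device skin, and 52.3, 55.4 and 52.5 CPM in untreated skin. The loaded libraries of both lay below all others. Col6a1 fell by 0.28 against untreated and by 0.22 against empty-device skin, and Col6a2 by 0.34 and 0.31 (log2, SE 0.0343 to 0.0345). Col6a3, the long chain that joins them in the molecule, had 46.3, 45.3 and 43.6 CPM in loaded skin, 48.6, 45.5 and 49.1 CPM in empty-device skin, and 46.3, 49.7 and 48 CPM in untreated skin. It was not called (-0.09, adjusted p = 0.0529 against untreated skin, and -0.08, adjusted p = 0.075 against empty-device skin), but both values lay close to the threshold. DESeq2 size factors and upper-quartile scaling made it a call against empty-device skin (-0.10 and -0.14), as did the stricter filter (-0.10) and leaving out empty-device replicate 2 (-0.12). Leaving out loaded replicate 1, empty-device replicate 2 or untreated replicate 1 made it a call against untreated skin (-0.09 to -0.12). Empty-device and untreated skin differed by -0.06 for Col6a1, -0.03 for Col6a2 and -0.01 for Col6a3, none of them called, with 0.097 for Col6a3 under library size alone, a call.

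The 3 long chains that can replace Col6a3 split. Col6a6 had 2.76, 2.98 and 2.87 CPM in loaded skin, 3.64, 3.78 and 4.35 CPM in empty-device skin, and 4.69, 4.75 and 4.48 CPM in untreated skin. Col6a5 had 2.4, 2.3 and 2.15 CPM in loaded skin, 2.56, 2.51 and 2.59 CPM in empty-device skin, and 3.63, 4.01 and 3.72 CPM in untreated skin. Col6a4 had 2.16, 2.14 and 2.15 CPM in loaded skin, 1.12, 1.35 and 1.31 CPM in empty-device skin, and 1.64, 1.17 and 1.63 CPM in untreated skin. Col6a6 and Col6a5 thus fell in loaded against untreated skin (log2 -0.69 and -0.73), while Col6a4 rose (0.54, SE 0.132). Against empty-device skin Col6a6 fell (-0.45) and Col6a4 rose (0.77), and Col6a5 was at -0.16 (SE 0.0961). Between empty-device and untreated skin Col6a5 fell (-0.57) and Col6a6 was at -0.24, a call that ended under upper-quartile scaling (-0.17), library size alone (-0.14) and the DESeq2 test (-0.21), and without empty-device replicate 1 (-0.19) or 2 (-0.22) or untreated replicate 2 (-0.23). Col6a4 was at -0.23 there, called without untreated replicate 2 (-0.38). The 3 genes lie one after another on chromosome 9, all read from the minus strand.

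The short-chain network collagens set untreated skin apart. Col8a1, a chain of the network around vessels and in remodelled tissue (chr16:57444621-57575100, minus strand, mm39), had 6.11, 6.3 and 6.09 CPM in loaded skin, 5.49, 5.49 and 6.28 CPM in empty-device skin, and 12.9, 15.1 and 13.6 CPM in untreated skin. It fell 2.25-fold in loaded skin (log2 -1.17, SE 0.0676, adjusted p = 6.1e-14) and 2.42-fold in empty-device skin (log2 -1.27, SE 0.0678, adjusted p = 5.54e-15) against untreated skin, the only 2-fold changes among the collagens. Loaded and empty-device skin overlapped (0.10, SE 0.0723). Col8a2, its partner chain, had 3.4, 3.64 and 3.8 CPM in loaded skin, 3, 3.41 and 3.15 CPM in empty-device skin, and 4.54, 4.92 and 4.63 CPM in untreated skin. It fell by 0.38 in loaded and by 0.56 in empty-device skin against untreated skin, and the difference of loaded from empty-device skin was 0.18 (SE 0.0865). Macrophage genes and a tendon list are given beside these values, and both were highest in untreated skin. That order was not particular to them, since fibroblast and basal keratinocyte genes, among other lists, also had their highest sums there. Macrophage genes summed to 154 to 168 CPM in loaded skin, 210 to 215 CPM in empty-device skin and 236 to 250 CPM in untreated skin. Against untreated skin all 7 fell in loaded skin, and 6 fell and 1 rose in empty-device skin. Unlike Col8a1, 6 of the 7 also fell in loaded against empty-device skin. Tendon genes summed to 16.4 to 17.3 CPM in loaded skin, 14.3 to 16.6 CPM in empty-device skin and 27.3 to 28.7 CPM in untreated skin. Of these 6, 4 fell and 0 rose in loaded skin, and 3 fell and 1 rose in empty-device skin, against untreated skin. Among all genes of at least 1 CPM, 32.3% fell and 27.8% rose in loaded against untreated skin. The shares were 38.8% and 28.2% in empty-device against untreated skin, and 25% and 33% in loaded against empty-device skin. No gene of either list was at 0, and their part in the Col8a1 values was not tested. Col10a1, the collagen of growth-plate cartilage, had 4 to 20 reads per library and lies wholly inside Nt5dc1 on the other strand. It was not called except in loaded against untreated skin without loaded replicate 2 (1.28).

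Col7a1 (chr9:108782654-108813943, plus strand, mm39), the sole component of anchoring fibrils, set empty-device skin apart. It had 99.6, 98.3 and 101 CPM in loaded skin, 162, 168 and 163 CPM in empty-device skin, and 92.2, 103 and 100 CPM in untreated skin. Loaded and untreated skin overlapped (log2 0.02, SE 0.0356, and a called 0.15 with library size alone). In loaded skin the gene fell 1.65-fold against empty-device skin (log2 -0.72, SE 0.0353, adjusted p = 1.53e-15), and in empty-device skin it rose 1.67-fold against untreated skin (log2 0.74, SE 0.0354, adjusted p = 6.53e-16). Both were the largest such differences among the 7 collagen genes that averaged at least 100 CPM.

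Col17a1, the hemidesmosome collagen of basal keratinocytes and hair follicle stem cells, showed the same order with a smaller size. The gene lies at chr19:47634783-47680533 on the minus strand (mm39). It had 733, 727 and 748 CPM in loaded skin, 851, 833 and 863 CPM in empty-device skin, and 706, 731 and 732 CPM in untreated skin. Empty-device skin stood above both others. The gene fell in loaded against empty-device skin (log2 -0.21, SE 0.033) and rose in empty-device against untreated skin (0.23, SE 0.033), and its 0.03 in loaded against untreated skin was not called except with library size alone (0.16). Of the 8 genes of the basal keratinocyte list, 1 rose and 4 fell in loaded against untreated skin, 1 rose and 2 fell in loaded against empty-device skin, and 1 rose and 3 fell in empty-device against untreated skin. Of all genes of at least 1 CPM, 27.8% rose and 32.3% fell, 33% rose and 25% fell, and 28.2% rose and 38.8% fell in the same order. Itgb4, a hemidesmosome integrin chain, had the order of Col17a1, with 142, 143 and 142 CPM in loaded skin, 159, 158 and 163 CPM in empty-device skin, and 132, 140 and 144 CPM in untreated skin (log2 0.04, not called, in loaded against untreated, -0.17 in loaded against empty-device and 0.21 in empty-device against untreated skin). Itga3, another integrin chain of these cells, rose in loaded skin against both groups (0.14 and 0.19). Krt14, the keratin of basal cells, had another order. It averaged 3579 ± 118 CPM in loaded skin, 4062 ± 144 CPM in empty-device skin and 7220.2 ± 452 CPM in untreated skin. The summed level of the basal list, most of it Krt14 and Krt5, was 10045 to 10504 CPM in loaded skin, 10636 to 11110 CPM in empty-device skin and 14119 to 14858 CPM in untreated skin. Suprabasal genes, by contrast, summed to 21627 to 23259 CPM in loaded skin, 41312 to 42336 CPM in empty-device skin and 29935 to 30831 CPM in untreated skin, highest in empty-device skin like Col7a1 and Col17a1. All 6 of them fell in loaded against empty-device skin, and 4 rose and 2 fell in empty-device against untreated skin. In loaded against untreated skin 5 of the 6 fell and 0 rose, unlike Col7a1 and Col17a1, which were not called there under TMM. The part of keratinocyte make-up in the Col7a1 and Col17a1 values was not tested.

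Col13a1 and Col23a1, also transmembrane collagens, were highest in loaded skin. Col13a1, found at cell adhesions and at the nerve-muscle junction, had 10.2, 9.89 and 9.42 CPM in loaded skin, 6.28, 5.63 and 6.77 CPM in empty-device skin, and 6.95, 7.81 and 7.31 CPM in untreated skin. Col23a1, an epithelial surface collagen, had 19.1, 18.6 and 19.8 CPM in loaded skin, 15.5, 15.3 and 16.6 CPM in empty-device skin, and 16.5, 17.4 and 17.6 CPM in untreated skin. For both, the loaded libraries lay above all others. Col13a1 rose by 0.66 (log2, SE 0.0691) against empty-device and by 0.42 (SE 0.0687) against untreated skin, and Col23a1 by 0.28 and 0.16 (SE 0.0479 and 0.048). The falls in empty-device against untreated skin were smaller (-0.24 for Col13a1 and -0.12 for Col23a1). That of Col13a1 was not called under upper-quartile scaling (-0.17), library size alone (-0.14) or without empty-device replicate 2 (-0.18). That of Col23a1 was not called under any other scaling, filter or 2-group fit (-0.02 to -0.11) or without any one empty-device library or untreated replicate 2 or 3 (-0.10 to -0.12). Genes of the dermal papilla, the signalling centre of the hair follicle, had the order of Col13a1 and are given beside it. The adipocyte genes above had that order too. Col11a1 did not share it in full, since its loaded and untreated libraries overlapped. The dermal papilla genes summed to 178 to 188 CPM in loaded skin, 112 to 121 CPM in empty-device skin and 138 to 141 CPM in untreated skin. Of 9 tested, 8 rose and 0 fell in loaded against empty-device skin, 7 rose and 1 fell in loaded against untreated skin, and 7 fell in empty-device against untreated skin, with Sox2 at 0 in all libraries. Of all genes of at least 1 CPM, 33% rose and 25% fell, 27.8% rose and 32.3% fell, and 38.8% fell in the same order. Hair keratins, made by the growing follicle, summed to 28204 to 29991 CPM in loaded skin, 16087 to 18453 CPM in empty-device skin and 24965 to 25218 CPM in untreated skin, all 14 being higher in loaded than in empty-device skin. Their part in these values was not tested. Col25a1, a transmembrane collagen of neurons and muscle, was at 2.43 to 3.2 CPM and not called in any comparison (0.00, -0.13 and 0.13, signs like those of Col17a1).

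Col28a1, a collagen known from peripheral nerve, had 4.3, 3.96 and 3.96 CPM in loaded skin, 4.55, 4.71 and 5.12 CPM in empty-device skin, and 3.95, 3.68 and 4.19 CPM in untreated skin. Empty-device skin lay above the other groups, with -0.23 for loaded against empty-device skin (adjusted p = 0.02) and 0.28 for empty-device against untreated skin (adjusted p = 0.00504). The first ended without loaded replicate 2 or 3 or empty-device replicate 3 (-0.21 each). Schwann cell genes summed to 166 to 175 CPM in loaded skin, 200 to 214 CPM in empty-device skin and 182 to 188 CPM in untreated skin. Of these 7, 5 fell and 0 rose in loaded against empty-device skin, and 4 rose and 1 fell in empty-device against untreated skin. In loaded against untreated skin, where Col28a1 was not called (0.05), 3 of the 7 fell and 1 rose. Among all genes of at least 1 CPM, 25% fell and 33% rose in loaded against empty-device skin. The shares were 38.8% and 28.2% in empty-device against untreated skin, and 32.3% and 27.8% in loaded against untreated skin. The part of Schwann cell RNA in the Col28a1 values was not tested. Col26a1, at 0.762 to 1.08 CPM, was not called in any comparison.

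The make-up of collagen RNA within a library does not depend on the scaling between libraries. Fibrillar genes held 33.4% ± 0.216 of all collagen counts in loaded skin, 38.5% ± 0.719 in empty-device skin and 42.9% ± 0.643 in untreated skin (SD, n = 3 each). Basement membrane genes held 10.4% ± 0.347 in loaded skin, 6.58% ± 0.0632 in empty-device skin and 7.84% ± 0.152 in untreated skin. In both classes the 3 groups did not overlap. Transmembrane genes, almost wholly Col17a1, held 30.5% ± 0.637 in loaded skin, 30.3% ± 0.652 in empty-device skin and 26% ± 0.325 in untreated skin, so that loaded and empty-device skin overlapped and both lay above untreated skin. Fibril-associated genes held 8.76% ± 0.135, 7.68% ± 0.184 and 7.99% ± 0.0208 in loaded, empty-device and untreated skin. The beaded-filament share differed least, at 5.84% ± 0.0304, 5.85% ± 0.114 and 6.06% ± 0.0375 in the same groups. Multiplexins held 6.65% ± 0.186 in loaded skin, 4.9% ± 0.204 in empty-device skin and 5.03% ± 0.0901 in untreated skin. Per kilobase of transcript, the fibrillar shares were 33.7%, 39.1% and 43.3% and the basement membrane shares 9.12%, 5.8% and 6.87% in loaded, empty-device and untreated skin, in the same order. Shares add to a whole, so a lower share of fibrillar counts raises the others. With 3 libraries against 3 no exact test of a single share could reach a two-sided p under 0.05, and none is given.

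**Figure D3:**
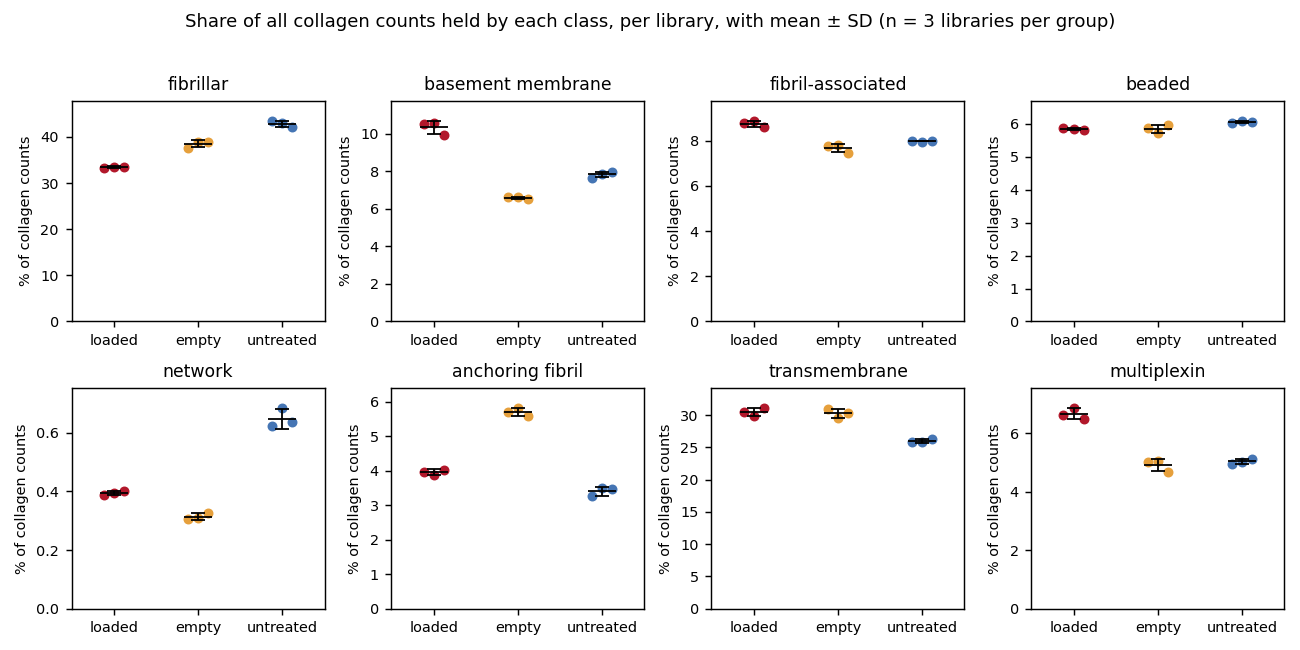
Share of all collagen counts (y axis, %, from 0) held by 8 classes in each library of loaded, empty-device and untreated skin (points), with the mean ± SD of 3 libraries. The fibrillar share is 33.4%, 38.5% and 42.9% in loaded, empty-device and untreated skin, and the basement membrane share is 10.4%, 6.58% and 7.84%.

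Ratios of counts between genes of the same library showed how far chains kept step. Col1a1 to Col1a2, the partners of type I, stood at 0.807 ± 0.00459 in loaded skin, 0.831 ± 0.00839 in empty-device skin and 0.816 ± 0.0127 in untreated skin, although both levels fell 1.59-fold or more in loaded against untreated skin. For this ratio the loaded libraries lay below the empty-device ones, and the untreated ones overlapped both. Col4a1 to Col4a2 was 1.29 ± 0.0157 in loaded skin, 1.19 ± 0.0251 in empty-device skin and 1.29 ± 0.0296 in untreated skin, with empty-device libraries below all others. Col6a1 to Col6a2 was 1.24 ± 0.0307, 1.17 ± 0.0307 and 1.19 ± 0.0272 in loaded, empty-device and untreated skin. The loaded libraries overlapped the untreated ones and lay above the empty-device ones. Col6a3 to Col6a1 was 0.859 ± 0.0375, 0.781 ± 0.0296 and 0.753 ± 0.0124 in the same groups, with loaded libraries above all others. The chains of type V did not keep step, with Col5a1 to Col5a2 at 0.552 ± 0.015 in loaded skin, 0.626 ± 0.0141 in empty-device skin and 0.502 ± 0.0181 in untreated skin, no group overlapping another. Between classes the ratios differed more. Col4a1 to Col1a1 was 0.823 ± 0.0302 in loaded skin, 0.369 ± 0.00784 in empty-device skin and 0.446 ± 0.0167 in untreated skin. Col17a1 to Col1a1 was 5.23 ± 0.135 in loaded skin, 4.06 ± 0.119 in empty-device skin and 3.19 ± 0.118 in untreated skin. Col7a1 to Col17a1, both of the dermal-epidermal junction, was 0.135 ± 0.000462 in loaded skin, 0.194 ± 0.00725 in empty-device skin and 0.136 ± 0.00497 in untreated skin. All these are mean ± SD over 3 libraries.

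**Figure D4:**
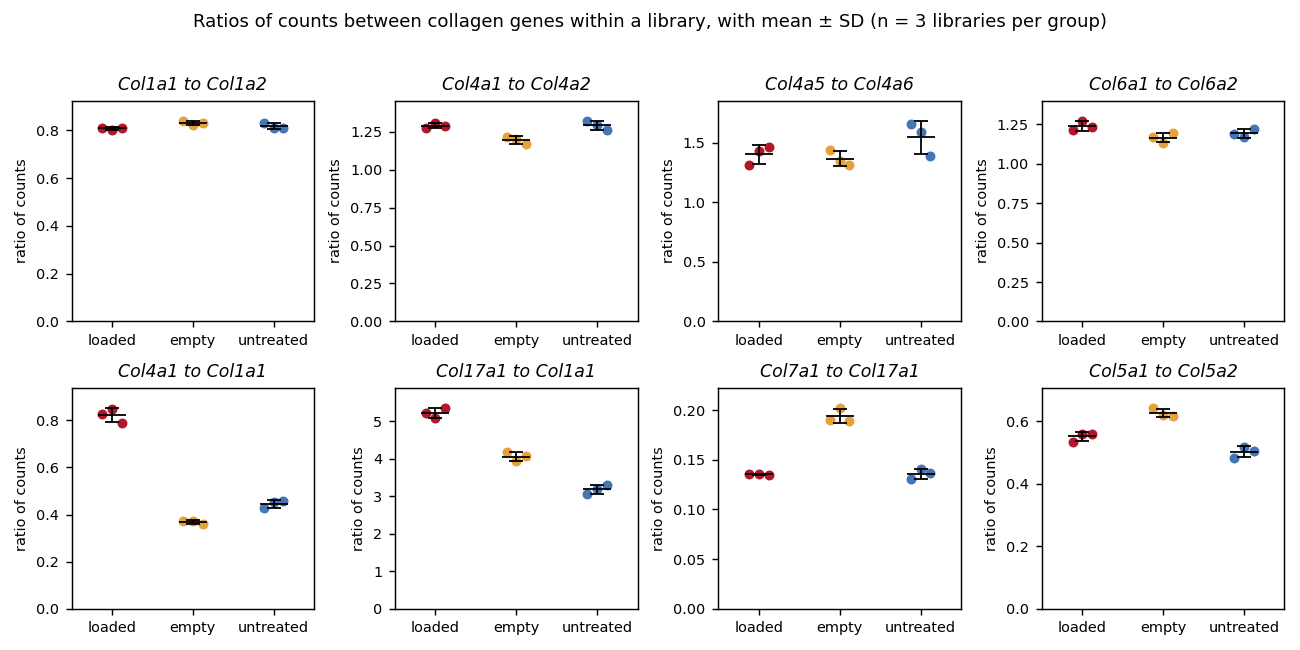
Ratio of counts (y axis, from 0) of 8 pairs of collagen genes within each library of loaded, empty-device and untreated skin (points), with the mean ± SD of 3 libraries. Col1a1 to Col1a2 lies between 0.802 and 0.84 in all 9 libraries, whereas Col4a1 to Col1a1 is 0.823 in loaded skin against 0.369 and 0.446 in empty-device and untreated skin.

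Genes that make, handle and remove collagen were described from lists, read against the shares over all genes of at least 1 CPM. Those were 27.8% higher and 32.3% lower in loaded against untreated skin. In loaded against empty-device skin they were 33% and 25%, and in empty-device against untreated skin 28.2% and 38.8%. Of 15 genes for proline and lysine modification, 6 fell and 0 rose in loaded against untreated skin, 6 fell and 3 rose in loaded against empty-device skin, and 3 fell and 4 rose in empty-device against untreated skin. P4ha1, a catalytic subunit of prolyl 4-hydroxylase, had 26.9, 27.8 and 26.9 CPM in loaded skin, 31.8, 31.4 and 33.4 CPM in empty-device skin, and 35.4, 32.9 and 34.1 CPM in untreated skin, and fell by 0.33 against untreated and by 0.24 against empty-device skin. P3h4, a partner of the prolyl 3-hydroxylases, fell by 0.29 and 0.48. Plod2, the lysyl hydroxylase of the telopeptides, was set apart by empty-device skin, with 16.2, 16.6 and 16.1 CPM in loaded skin, 9.66, 10.4 and 9.65 CPM in empty-device skin, and 15.9, 15.8 and 15.9 CPM in untreated skin (log2 0.72 for loaded against empty-device and -0.68 for empty-device against untreated skin). Ppib, a prolyl isomerase of the endoplasmic reticulum, fell in loaded and in empty-device skin against untreated skin (-0.42 and -0.58).

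Of 11 genes for folding and export, 6 fell and 1 rose in loaded against untreated skin, 4 fell and 2 rose in loaded against empty-device skin, and 5 fell and 4 rose in empty-device against untreated skin. Serpinh1, the collagen chaperone HSP47, had 83.7, 82.6 and 84.2 CPM in loaded skin, 80.2, 80.9 and 80.8 CPM in empty-device skin, and 101, 100 and 99.2 CPM in untreated skin, lower in loaded and empty-device skin than in untreated skin (-0.26 and -0.31). Sec23a, a coat protein of the export vesicle, fell by 0.59 and 0.50 in the same comparisons. Creb3l1, a transcription factor of collagen secretion, fell in loaded against empty-device skin (-0.47) and rose in empty-device against untreated skin (0.44). Of 8 genes for trimming propeptides, Bmp1, the C-proteinase, rose in loaded skin by 0.22 against untreated and by 0.28 against empty-device skin. Its enhancer Pcolce fell by 0.41 and 0.35, and Adamts2, an N-proteinase, by 0.34 and 0.27. In that list 3 rose and 2 fell in loaded against untreated skin, 2 rose and 4 fell in loaded against empty-device skin, and 3 rose and 1 fell in empty-device against untreated skin.

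Genes that act on finished fibrils were lower in loaded skin. All 5 genes of the lysyl oxidase family, which cross-link fibrils, fell in loaded against untreated skin, 2 fell and 0 rose in loaded against empty-device skin, and 3 fell and 0 rose in empty-device against untreated skin. Lox had 9.79, 9.79 and 10.3 CPM in loaded skin, 11.3, 10.5 and 12.3 CPM in empty-device skin, and 14.9, 15.2 and 16.2 CPM in untreated skin (log2 -0.64 against untreated and -0.19 against empty-device skin). Of 12 small proteoglycans and related proteins that coat fibrils, 10 fell and 0 rose in loaded against untreated skin, 7 fell and 2 rose in loaded against empty-device skin, and 7 fell and 1 rose in empty-device against untreated skin. Lum had 35.9, 36.7 and 38.2 CPM in loaded skin, 50, 52.1 and 53.9 CPM in empty-device skin, and 68.9, 66.8 and 64.7 CPM in untreated skin, a fall of 0.85 against untreated and 0.49 against empty-device skin. Dcn fell by 0.51 and 0.16, and Aspn by 0.85 and 0.30. Dcn, Dpt, Lum and Fbln1 stand in the fibroblast list too, as does Loxl1 of the cross-linking list. Fmod stands both in this proteoglycan list and in the tendon list.

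Collagen-degrading enzymes were lower as well, so that the lower fibrillar levels stood beside lower levels of the genes that remove fibrils. Of 10 breakdown genes, 8 fell and 0 rose in loaded against untreated skin, 6 fell and 0 rose in loaded against empty-device skin, and 5 fell and 0 rose in empty-device against untreated skin. Mmp13, the main interstitial collagenase of the mouse, had 2.4, 2.74 and 2.82 CPM in loaded skin, 3.88, 3.44 and 3.78 CPM in empty-device skin, and 9.97, 9.73 and 9.25 CPM in untreated skin (log2 -1.86 against untreated and -0.48 against empty-device skin). Mmp3, which activates collagenases, fell by 1.27 and 0.75, and Ctsk, a lysosomal collagenase, by 0.83 and 0.58. Mmp14, the membrane-bound collagenase, lay at 95.3 to 99.3 CPM in loaded skin, 97.5 to 101 CPM in empty-device skin and 97.9 to 102 CPM in untreated skin, and was not called (-0.04, -0.02 and -0.02, SE 0.0315 to 0.0316).

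Of 11 tested collagen receptors, 6 fell and 2 rose in loaded against untreated skin, 5 fell and 4 rose in loaded against empty-device skin, and 3 fell and 3 rose in empty-device against untreated skin. Ddr2, the receptor of fibrillar collagen on fibroblasts, had 48, 48.4 and 48.1 CPM in loaded skin, 79.5, 70.9 and 75.5 CPM in empty-device skin, and 70.3, 68.7 and 68.7 CPM in untreated skin, a fall of 0.52 against untreated and 0.64 against empty-device skin. Ddr1, the epithelial receptor, rose in empty-device against untreated skin (0.27). In loaded skin Ddr1 fell against empty-device skin (-0.20), and its 0.07 against untreated skin was not called (adjusted p = 0.0896). Lair1, an inhibitory collagen receptor of immune cells, fell by 0.87 and 0.78, at 0.86 to 0.91 CPM in loaded skin, 1.42 to 1.63 CPM in empty-device skin and 1.55 to 1.74 CPM in untreated skin.

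Of 15 partners of type IV in basement membranes, 6 rose and 2 fell in loaded against untreated skin, 7 rose and 5 fell in loaded against empty-device skin, and 2 rose and 3 fell in empty-device against untreated skin. Lamb1, a laminin chain of vessels and other membranes, had 92.5, 92.3 and 86.5 CPM in loaded skin, 61.3, 63.9 and 60.3 CPM in empty-device skin, and 78, 77.4 and 80.1 CPM in untreated skin, in the order of Col4a1 (log2 0.55 against empty-device and 0.20 against untreated skin). Pxdn, the peroxidase that cross-links type IV collagen, rose by 0.45 and 0.15 in the same comparisons. Lama5, a laminin chain of epithelia and vessels, rose by 0.31 and 0.29. Of 14 genes of the TGF-beta signal, 8 rose and 2 fell in loaded against empty-device skin, 6 rose and 4 fell in loaded against untreated skin, and 2 rose and 6 fell in empty-device against untreated skin. Among its targets, Ccn2 fell in loaded against untreated skin (-0.34) and was at -0.02 against empty-device skin, while Smad7 rose by 0.37 and 0.57 in these comparisons.

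**Figure D5:**
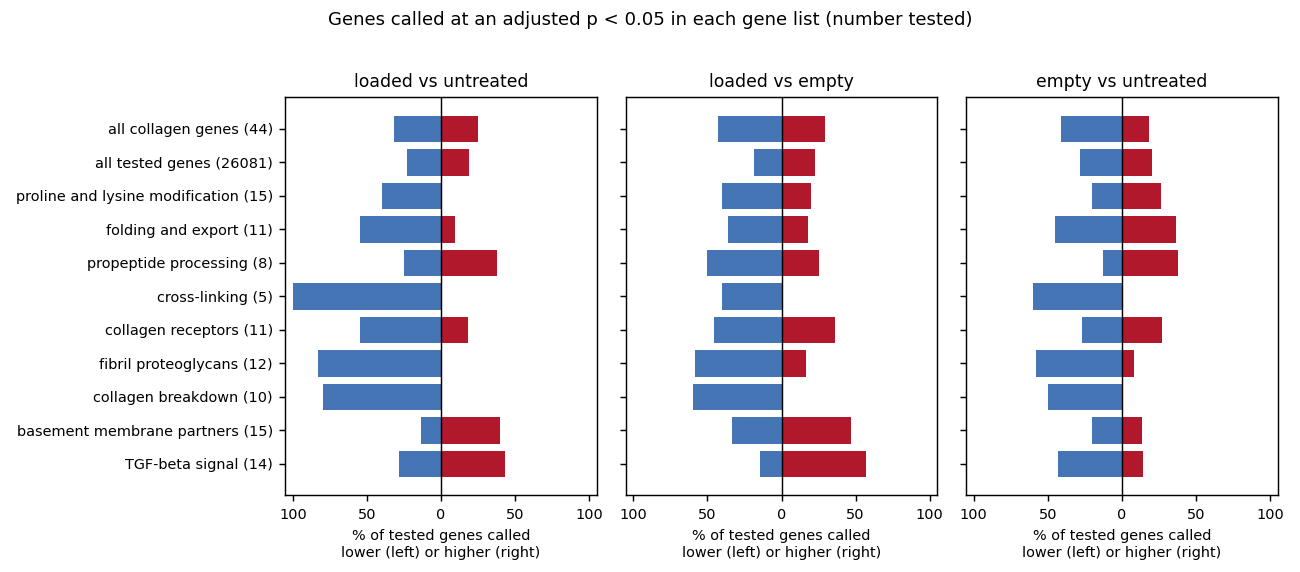
Share of tested genes called lower (left of 0) or higher (right of 0) in each list (x axis, %, rows with the number tested) for loaded against untreated, loaded against empty-device and empty-device against untreated skin. In loaded against untreated skin all 5 cross-linking genes and 8 of 10 breakdown genes are lower. Rows of all collagen genes and of all tested genes are drawn for comparison. The latter row includes genes under 1 CPM, with 19% higher and 23.3% lower in loaded against untreated skin. For genes of at least 1 CPM, the background used in the text, these shares are 27.8% and 32.3%.

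Skeletal muscle RNA differed between the groups and is given beside the comparisons with empty-device skin. The 12 genes of that list summed to 8524 to 9023 CPM in loaded skin, 11798 to 13927 CPM in empty-device skin and 9174 to 9424 CPM in untreated skin, with 10 lower and 1 higher in loaded against empty-device skin and none at 0. Of all genes of at least 1 CPM, 25% were lower and 33% higher there. With the muscle score as a covariate 5 collagen genes were higher and 3 lower in loaded against empty-device skin, in place of 13 and 19. Of all tested genes 4.13% were then higher and 4.78% lower, in place of 22.9% and 18.5%. The median standard error of the collagen genes was 2.80 times as large, since 88.4% of the variance of that score lay between the groups. Against untreated skin the same covariate left 11 higher and 13 lower, where 14.9% of all tested genes were higher and 19% lower. The part of muscle RNA in the comparisons with empty-device skin was not tested beyond this.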

How the data were processed

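Whole-tissue RNA from 9 mouse skin samples, 3 per group, was purified with Qiagen miRNeasy columns, and its polyadenylated part was sequenced after preparation with xGen Broad-Range reagents from IDT, per the labels' protocols. HISAT2, featureCounts and mm39 are named in the submitters' processing notes. The sources used here do not give versions, annotation, strand or the unit of counting (single reads or pairs). The authors deposited raw counts per gene, not normalized. The table's length column equals the whole gene span for 99.9% of genes and for all 44 collagen genes, so intron reads were counted.

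Libraries held 85962714 to 96740589 counts. The filter on low counts was filterByExpr of edgeR, with a minimum count of 10 and a minimum total of 15, and 26081 genes passed it, with at least 99.9% of the counts of each library. All 9 libraries were fitted with TMM scaling and the robust quasi-likelihood test (edgeR 4.0.16, R 4.3.3), with 1 coefficient per group and Benjamini-Hochberg adjustment over all tested genes. The common biological coefficient of variation was 0.0390. The code was tested on simulated data. No 2 libraries of a group agreed within sampling noise, as the mean chi-square per gene was 2.70 to 16.6 in the 9 pairs. The replicate numbers were not taken as pairing the samples, a point on which the labels are silent.

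Per-library values are given for up to 4 collagen genes of highest mean CPM per class and, per comparison, for the 6 highest and 6 lowest log2 fold changes among called collagens of at least 1 CPM. For Col10a1, Col25a1, Col26a1 and Col27a1, which this rule picks, ranges are given in their place. Col2a1, Col4a3, Col4a4, Col5a1, Col5a3, Col9a1, Col9a2, Col9a3, Col19a1 and Col22a1 fall outside that rule and are given to account for all members. From other lists up to 4 genes of smallest p in the comparison concerned are named, and Mmp14, Pdgfra, Pecam1 and the cartilage markers were chosen after their values were seen. The members and lists were chosen with earlier results of these data known. Transcript lengths came from GENCODE M21 (44 of 44 genes matched) and promoters from RefSeq, both of GRCm38. Alternatives were DESeq2 size factors, upper-quartile and library-size scaling, 2 other filters, DESeq2 1.42.0, limma-voom (limma 3.58.1), fits of 2 groups, of the replicate block, without robust estimation and with marker scores, a minimum change of 1.5-fold, and leaving out each library. Class shares per kilobase of transcript and of coding length were added after seeing the data.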

Additional observations from a re-analysis of the deposited data

How the results depend on the processing

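Over 22 other settings, 83 called gene and comparison pairs of the 132 gave 1520 values on the same side of the threshold, 290 that lost the call and 16 that changed sign. In loaded against untreated skin 11 collagen genes were higher and 14 lower. Leaving out a library gave 10 to 12 higher and 13 to 15 lower. Loaded against empty-device skin gave 13 higher and 19 lower, and 12 to 13 and 15 to 19 without a library. Empty-device against untreated skin gave 8 higher and 18 lower, and 6 to 8 and 12 to 18 without a library. With a minimum change of 1.5-fold, 0 were higher and 2 lower, 0 higher and 1 lower, and 1 higher and 1 lower in the 3 comparisons in that order. In loaded against untreated skin library size alone gave 16 higher and 13 lower. In empty-device against untreated skin 9 were lower under upper-quartile scaling, and 15 higher and 7 lower with library size alone. There library size alone turned the sign of the class fibrillar median (5.32e-06), Col5a1 (5.32e-06), Col6a3 (0.097), Col16a1 (0.0038), Col12a1 (0.012), Col18a1 (0.089) and Col14a1 (0.092), since it moved all genes by 0.10. It also turned the class fibril_associated median in loaded against untreated skin (0.039).

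Marker scores as covariates are nearly the groups themselves, with 88.4% (muscle) and 95.8% (fibroblast) of their variance between groups. With the fibroblast score 0 were higher and 0 lower in loaded against untreated, 4 and 3 in loaded against empty-device, and 4 and 6 in empty-device against untreated skin. Of all tested genes 0.107% and 0.544%, 3.37% and 4.05%, and 11.1% and 16.2% were higher and lower in that order. With the muscle score 5 were higher and 3 lower in loaded against empty-device skin (4.13% and 4.78% of all tested genes). In empty-device against untreated skin 4 were higher and 13 lower (9.48% and 15.6% of all tested genes). In loaded against untreated skin the class fibril_associated median turned to 0.064 (muscle) and 0.13 (fibroblast), and with the fibroblast score Col8a2 to 0.072 and Col6a6 to 0.061. In loaded against empty-device skin the median of the collagen genes turned to 0.12 (muscle) and 0.11 (fibroblast), the class fibrillar median and Col27a1 to 0.057 and 0.0023, Col19a1 to 0.19 and 0.31, Col24a1 to 0.44 and 0.36, and Col6a6 to 0.010 and 0.018. In empty-device against untreated skin the muscle score turned the class fibril_associated median to -0.050 and Col27a1 to -0.017, and the fibroblast score turned the class fibrillar median and Col5a1 to 0.0018, the class beaded median to 0.0066 and Col6a6 to 0.042. The cause was not tested.

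The replicate block gave 11 higher and 13 lower, 13 and 19, and 7 and 18 in the 3 comparisons. Deviations of same-numbered libraries correlated at -0.100 to 0.0959 in 9 pairs, so the numbers were not taken as pairing. At the depth of these libraries the 6 collagen genes under 1 CPM had wide errors, as for Col10a1 with a standard error of 0.502 in loaded against untreated skin.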
